A study of Mus musculus with 4 samples.

Results

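Calmodulin, calmodulin-dependent kinases and neuronal calcium sensors were followed in 4 samples of mouse hippocampus, each read on 1 Affymetrix MG_U74Av2 array from total RNA. The members were the probe sets, groups of short oligonucleotides that read 1 transcript, whose annotation gave a single gene symbol out of 9 listed genes. They came to 9 probe sets of 12422, for 8 genes of 8251 with such an annotation: Camk2a, Camk2b, Camk4, Calm2, Ppp3ca, Nrgn, Hpca and Vsnl1. Camk2a had 2 probe sets, the other genes had 1 each, and Camk2g was not analysed here. The labels name the tissue and put the samples in 1 group, without strain, sex, age or treatment. They do not say whether the samples came from separate animals, so that p-values measure only the spread between these samples, which may be technical. No groups were compared. The question was how far each gene's signal differed between replicate samples, which are called 1 to 4 only to name them.

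Calcium that enters a neuron through synaptic receptors and channels binds calmodulin, a small EF-hand protein, and calcium-loaded calmodulin switches on both kinases and a phosphatase. In hippocampal principal neurons the kinase CaMKII and the phosphatase calcineurin act in opposite directions on synaptic strength, and neurogranin holds calcium-free calmodulin in dendritic spines. Hippocalcin and visinin-like protein belong to a separate family of EF-hand sensors that move to membranes when they bind calcium.

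Camk2a was the member that varied most, and both of its probe sets were lowest in sample 4. Camk2b, which encodes the partner subunit of the same kinase, was highest there, but only 1.03-fold above the next highest sample. Nrgn spanned about 2-fold between samples 2 and 3. The signals of Camk2b, Calm2, Ppp3ca and Hpca stayed within 1.5-fold over the 4 samples, as did those of 55.8% of all analysed probe sets. Camk4, whose signal was too low for analysis, also stayed within 1.5-fold. The members did not share 1 order of samples. Among the 8 member probe sets with enough signal for analysis, the lowest value fell in sample 4 for 3 (30.7% of all analysed probe sets had it there), in sample 3 for 3, and in samples 1 and 2 for 1 each.

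Signals are quantile normalized array units unless stated otherwise, and the number of arrays limits their precision. Ranges were taken on the log2 scale after values below the 25th percentile of all values, 27.7 units, had been set to that floor. Without detection calls, a signal near the floor cannot be told from background. The analysis kept the brighter probe sets, those whose mean over the arrays exceeded the median such mean. These were 6210 in all, with 8 of the 9 members and without Camk4. Signals of different probe sets depend on their oligonucleotides and are not compared with each other.

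Sample 4 stood apart from the other arrays across all genes. It held the lowest value of 30.7% and the highest value of 31.1% of all analysed probe sets. It lay at least 2-fold below every other sample for 127 analysed probe sets, against 16 to 37 for samples 1 to 3, and its correlations with them (Pearson's r from 0.907 to 0.925, taken across probe sets, not samples) were below those among them (0.941 to 0.949). Control transcripts read at both ends gave their highest ratio of 3' over 5' signal in sample 4 in all 5 cases. In 4 of the 5 every 5' signal lay above the floor. The ratio grows when transcripts are shortened. For the fifth, the transferrin receptor, it was 7.20 in sample 4 and 1.41 to 3.36 in the others, but its 5' signal in sample 4 lay below the floor. For Gapdh the ratio was 1.15 in sample 4 and 0.864 to 0.981 in the others. For pyruvate carboxylase it was 3.16 in sample 4 and 1.81 to 3.03 in the others. For beta-actin it was 2.03 in sample 4 and 1.51 to 1.84 in the others. The remaining control, 18S RNA, is ribosomal and not messenger RNA, with 6.42 in sample 4 and 3.02 to 5.01 in the others. Of the glutamatergic neuron genes, Neurod6 gave 537, 269, 307 and 360.0 units in samples 1 to 4, Neurod2 gave 736, 638, 622 and 909 units, and Grin2b lay below the floor in sample 1, with 22.6, 304, 136 and 69.7 units. Genes that mark neighbouring brain regions were measured as well. The striatal gene Drd2 gave 100.1 to 114 units and Penk 562 to 894 units, the thalamic genes Tcf7l2 and Prkcd gave 172 to 407 and 439.6 to 528 units, and the cerebellar genes Pcp2 and Cbln1 gave 135 to 401 and 171 to 252 units.

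Calm2 encodes calmodulin, whose protein is made from several genes. Its probe set (161133_at) read 201, 199.6, 163 and 203 units across samples 1 to 4 (191 ± 19.2, SD, n = 4). Samples 1, 2 and 4 lay close together and sample 3 was below them, 1.23-fold under the next lowest. Of 8 members this was the only one whose most distant sample passed Dixon's 95% limit for 4 values, which 6.05% of all analysed probe sets passed. The range of 0.32 log2 units was narrower than that of 84.4% of the 500 analysed probe sets nearest to it in mean signal. Its SD was 0.523 times the SD that the trend of variance on signal gives for such a probe set.

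**Figure D1:**
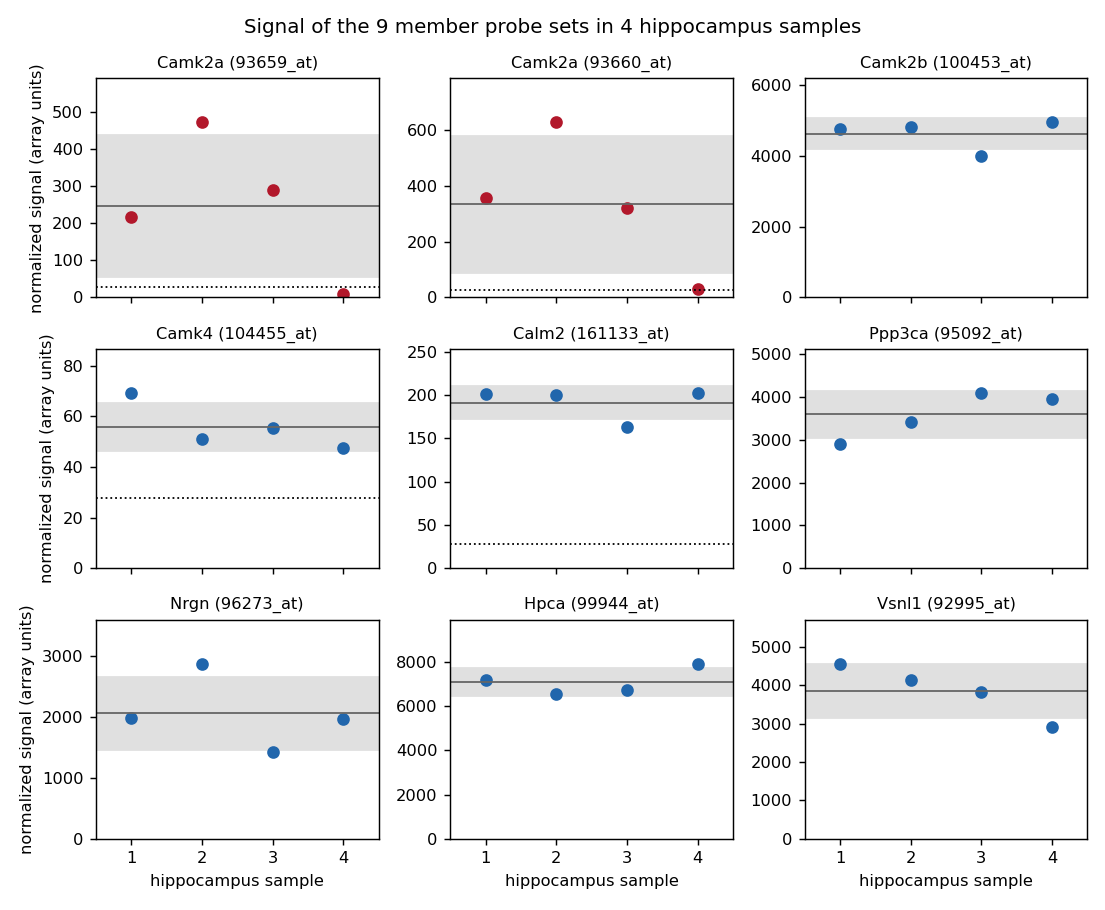
Normalized signal (array units, each panel with its own axis from 0) of the 9 member probe sets in samples 1 to 4; each point is 1 array, the line is the mean, the grey band is 1 SD either side, and the dotted line is the floor of 27.7 units. Both Camk2a panels lie near or under the floor in sample 4, at 9.91 and 29.4 units, whereas Camk2b, Calm2 and Hpca stay near their means.

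CaMKII is a multi-subunit kinase that stays active after a calcium pulse by phosphorylating itself, and its alpha subunit, encoded by Camk2a, is among the most abundant proteins of excitatory synapses. The first Camk2a probe set (93659_at) read 216, 472, 289.95 and 9.91 units across samples 1 to 4 (247 ± 191, SD, n = 4). The second (93660_at) gave 357, 629.7, 321 and 29.4 units (334 ± 246, SD, n = 4). Both were highest in sample 2 and lowest in sample 4, and they ordered samples 1 and 3 differently.

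In sample 4 the second probe set was just above the floor, which did not change its folds. Such a signal cannot be told from background, so its folds are read as lower bounds. It lay at least 10.9-fold below the next lowest sample and at least 14.2-fold below the mean log2 signal of the other 3. The first lay below the floor there, and was at least 7.81-fold below the next lowest sample. Its range over the 4 samples was at least 17.1-fold, or 4.09 log2 units, and 5.57 log2 units with the floor at the 10th percentile. The range of the second probe set was at least 21.4-fold. Among 6210 analysed probe sets, 3 others lay at least as far below their next lowest sample, whichever sample was lowest: Ywhag 102259_at, 92659_at, which has no single gene symbol here, and the second Camk2a probe set itself. These 4 all had their lowest value in sample 4.

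Both Camk2a probe sets therefore were among the analysed probe sets that lay at least 2-fold below every other sample in sample 4. They are 2 of the 8 analysed member probe sets but only 1 gene, against 2.05% of all analysed probe sets. Over samples 1 to 3 alone the Camk2a ranges were 2.19-fold and 1.96-fold, with sample 2 highest in both.

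Markers of neurons were compared across the same samples. Of 10 pan-neuronal genes, 8 were analysed, and 6 of the 8 were lowest in sample 4, beside 30.3% of all analysed genes with a symbol. The median log2 difference of the 8 from the mean of the other samples was -0.37 there. Their summed signal, most of it from the brightest probe sets, was 15544 units in sample 4 and 17504 to 19907 units in the others. Snap25, of the vesicle fusion machinery, gave 8517, 8169.7, 9251 and 7326 units, and Syt1, the vesicle calcium sensor, gave 2039.9, 1160.2, 718 and 605 units. The cytoskeletal genes Map2 and Nefm, named after their values were seen, were farthest down in sample 4. Map2 gave 305, 171, 187 and 63.9 units, 2.67-fold below the next lowest sample. Nefm gave 245, 165, 247 and 70.1 units, 2.36-fold below it. Nefl and Tubb3, of the same list, were lowest in sample 3. Nefl gave 515, 587, 479 and 527 units, and Tubb3 gave 4097, 4219, 3714 and 4198 units. Of 8 listed genes of glutamatergic principal neurons, 5 were analysed, and 1 of the 5 was lowest in sample 4, beside the same 30.3%. This was Nptx1, named after its values were seen, with 1074, 1005, 934 and 557 units, 1.68-fold below the next lowest sample. The sum of the 5 was 7753 units in sample 4 and 7385 to 8399 units elsewhere. Most of it came from Gria2, with 5857 units in sample 4. No analysed gene of these lists was at 0, but Grin2b lay below the floor in sample 1. By their sums, interneuron and microglia genes were also lowest in sample 4. The 5 analysed interneuron genes summed to 11035.5, 12194, 11124 and 10922 units in samples 1 to 4. The 6 analysed microglia genes summed to 2481, 2827, 2307 and 2202 units. Further cell types had other orders of samples. The 5 analysed oligodendrocyte genes summed to 7105, 9689, 6993 and 10093 units in samples 1 to 4, and the 4 analysed red blood cell genes to 14231, 11126, 4652 and 8739 units, lowest in sample 3. In tissue RNA, fewer cells of a type and less RNA per cell cannot be told apart. The part of these markers and of the 3' to 5' ratio in the low Camk2a signal was not tested, nor was that of the cell markers in the differences of the other members.

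Camk2b encodes the beta subunit of CaMKII, which joins the alpha subunit in the holoenzyme and binds actin. Its probe set (100453_at) gave 4760.2, 4807, 3989.6 and 4955 units, with a mean of 4628 ± 433 (SD, n = 4). Samples 1, 2 and 4 differed by 1.04-fold or less, and sample 3 was 1.19-fold below the next lowest. Sample 4, the lowest for Camk2a, held the highest Camk2b value. The Camk2b range of 0.31 log2 units was close to the median of 0.33 for the 500 probe sets of nearest signal. The delta subunit gene Camk2d, named here after its values were seen, was below the floor in all 4 samples.

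Camk4 encodes a kinase of the neuronal nucleus that phosphorylates the transcription factor CREB. Its signal (104455_at) was 69.3, 51.1, 55.3 and 47.6 units, with a mean of 55.8 ± 9.51 (SD, n = 4). Sample 1 was highest and the other samples lay within 1.16-fold of each other. All 4 values were above the floor, but the mean was too low for the analysed set, so that no variance test was made.

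**Figure D2:**
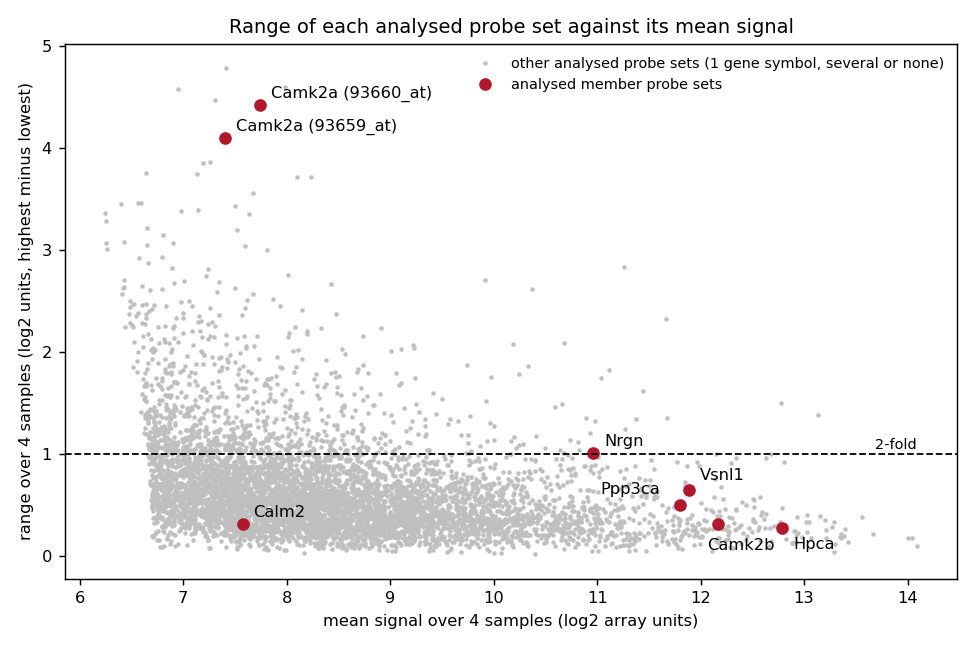
Range over the 4 samples (log2 units, highest minus lowest) against mean signal (log2 array units) for all 6210 analysed probe sets in grey and the 8 analysed members in red; the dashed line marks 2-fold. The Camk2a probe sets lie at 4.09 and 4.42 log2 units, Nrgn sits on the 2-fold line at 1.01, and the other members lie below it.

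Ppp3ca encodes the alpha catalytic subunit of calcineurin, the phosphatase that calmodulin activates. Its probe set (95092_at) gave 2892, 3428, 4097 and 3966 units, with a mean of 3596 ± 551 (SD, n = 4). Samples 3 and 4 were the higher pair and sample 1 was lowest, with a range of 1.42-fold. The calcium-binding regulatory subunit gene Ppp3r1 had another order: it gave 5956, 5779, 3165 and 5799 units. Sample 3, the highest for Ppp3ca, was the lowest for Ppp3r1, 1.83-fold below the next. The catalytic isoform gene Ppp3cb gave 579, 476, 513 and 384.5 units and was highest in sample 1.

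Nrgn encodes neurogranin, a postsynaptic protein of principal neurons that binds calmodulin at low calcium. Its probe set (96273_at) gave 1978, 2868, 1422 and 1965 units, with a mean of 2058 ± 599 (SD, n = 4). Samples 1 and 4 were almost equal, sample 2 was 1.45-fold above the next highest and sample 3 was 1.38-fold below the next lowest. The range was 2.02-fold, just past the 2-fold limit, and 0.93 log2 units, or just short of it, when the arrays were scaled by their medians. It exceeded the range of 94.8% of the 500 probe sets of nearest signal. Sample 2 was also the highest for both Camk2a probe sets, whereas sample 4, the lowest for Camk2a, was at the middle of the Nrgn values.

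Hpca encodes hippocalcin, a myristoylated sensor named for its abundance in the hippocampus. Its probe set (99944_at) gave 7191, 6533, 6734 and 7924 units, with a mean of 7096 ± 617 (SD, n = 4). Sample 4 was highest and sample 2 lowest, and the range of 1.21-fold was the smallest among the analysed members. Vsnl1 encodes visinin-like protein 1 of the same family. Its probe set (92995_at) gave 4559.97, 4121, 3825 and 2899.8 units, with a mean of 3852 ± 703 (SD, n = 4). Samples 1 to 3 lay within 1.19-fold, and sample 4 was 1.32-fold below the lowest of them. In sample 4 the related sensors thus lay at opposite ends of their own values, Hpca at the top and Vsnl1 at the bottom.

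Of the 8 analysed member probe sets, 3 spanned 2-fold or more, the pair of Camk2a and that of Nrgn, which are 2 of 7 genes; among all analysed probe sets the share was 15.2%. Over samples 1 to 3 this held for 2 of 8 (Camk2a 93659_at and Nrgn), against 7.73% of all analysed probe sets. Probe sets of 1 gene share their transcript, so that the Camk2a pair is not independent. The median range of the 8 was 0.58 log2 units, and that of all analysed probe sets was 0.53. Over samples 1 to 3 these medians were 0.40 and 0.37.

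The variance of each probe set over the samples was tested against the trend of variance on signal with limma (F test, one-sided, adjusted over all analysed probe sets by Benjamini-Hochberg). It called 0 of 6210 probe sets at an adjusted p under 0.05 (0% of those tested), and so 0 of the 8 members, while 349 probe sets, with 3 members among them, had an unadjusted p under 0.05. The SD of the Camk2a probe sets was 5.83 and 7.04 times that of the trend, with adjusted p = 0.405 and 0.356 (limma), the latter the smallest of all 6210. Over the alternatives run, the adjusted p of 93660_at ranged from 0.115 without sample 3 to 0.920 without sample 4. For Nrgn the SD was 2.47 times the trend, with adjusted p = 0.832 (limma). Vsnl1 and Ppp3ca had an SD of 1.92 and 1.55 times the trend, and Camk2b and Hpca of 1.01 and 0.970 times. No member is therefore called variable against all probe sets, and the values above describe these arrays.

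The probe sets whose 4 values lay closest to the second Camk2a probe set, after each was centred on its own mean, were looked for among all analysed probe sets with a single symbol. The closest was the first Camk2a probe set, at a root mean square difference of 0.25 log2 units over the 4 samples. Ywhag (102259_at), which encodes a 14-3-3 protein, followed at 0.47, with 667, 513, 435 and 18.2 units. Kif5c (92433_at), which encodes a kinesin heavy chain of neurons, came next at 0.52, with 225, 232, 141 and 23.3 units. All of them had their lowest value at or near the floor in sample 4. A second probe set of Ywhag (95716_at) did not share the pattern and gave 6734, 6456, 6288 and 6456 units, a range of 1.07-fold. With 4 samples and 6210 probe sets, such likeness is a description only.

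**Figure D3:**
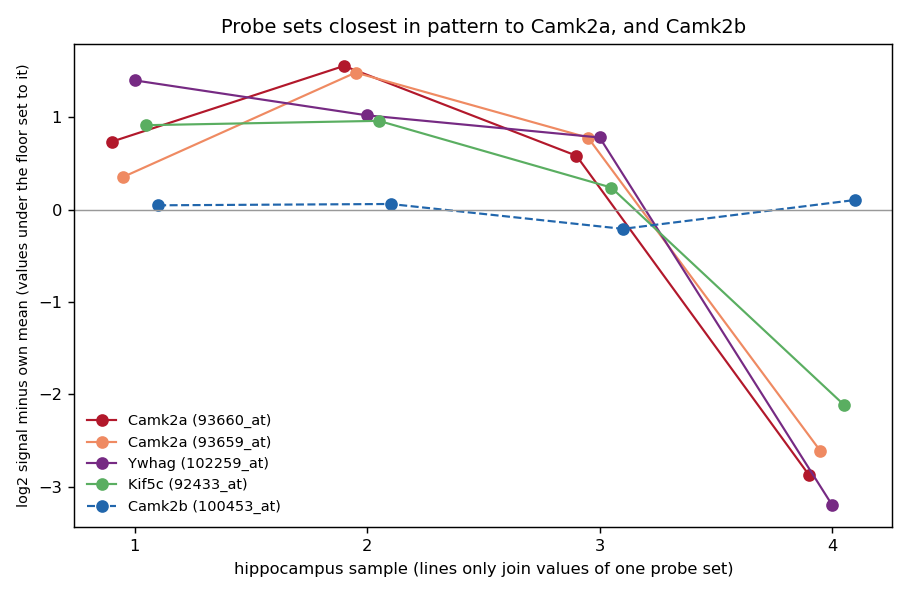
Log2 signal minus its own mean over the 4 samples (values under the floor set to it) for both Camk2a probe sets, the closest other probe sets (Ywhag 102259_at and Kif5c 92433_at) and, dashed, Camk2b; lines only join the values of 1 probe set. All but Camk2b lie more than 2 log2 units below their means in sample 4, and Camk2b stays within 0.25 of its mean in every sample.

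Other genes of calcium signalling were taken from 6 lists of 105 genes in all, of which 61 had a probe set with a single symbol and 42 were analysed, each represented by its brightest probe set. Of the 42, 6 spanned 2-fold or more, beside 13.3% of all 4824 analysed genes with a symbol, and over samples 1 to 3 for 5 of 42, beside 6.76%. The variance test called 0 of the 42 (limma, adjusted p), and 4 had an unadjusted p under 0.05, beside 5.62% of all analysed probe sets. The median range was 0.49 log2 units, against 0.51 for all analysed genes with a symbol. Sample 4 was lowest for 12 of the 42, and over all such genes for 30.3%.

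Among proteins that bind and hold calmodulin, 0 of 5 analysed genes spanned 2-fold. Gap43, a growth cone protein with the calmodulin-binding site that neurogranin also has, gave 794, 742, 1141 and 860.2 units and was highest in sample 3. Marcks, which binds actin and calmodulin under the plasma membrane, gave 623, 595, 635 and 442 units, so that sample 4 was lowest. The adducin gene Add1 was highest in sample 4 and lowest in sample 1, and gave 1395, 1466, 1667 and 1847 units.

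Among calmodulin-dependent kinases and their regulators, 0 of 5 spanned 2-fold. Sample 4 was lowest for 0 of the 5, beside 30.3% of all analysed genes with a symbol. Pnck, a kinase of the CaMKI family, gave 678, 437, 416 and 610.2 units, with samples 1 and 4 above the others. The myosin light chain kinase gene Mylk was highest in sample 4, with 319.6, 360.3, 321 and 470.1 units. Phka1, a phosphorylase kinase subunit, gave 115.5, 74.7, 144 and 137 units and was lowest in sample 2.

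Of the calcineurin list, 0 of 7 analysed genes spanned 2-fold. Besides Ppp3r1 and Ppp3cb, the widest were Rcan3, a calcineurin regulator, with 115.5, 127, 200.3 and 208 units, and Nfatc2, a transcription factor that calcineurin activates, with 140.3, 236, 189.8 and 200.3 units. Ppp3r1 was the widest of the 7, at 1.88-fold, with adjusted p = 0.664 (limma).

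In the sensor family 3 of 17 listed genes were analysed and 1 spanned 2-fold, Ncs1, neuronal calcium sensor 1. It gave 328, 75.0, 231 and 92.0 units, a 4.38-fold range with samples 1 and 3 high and samples 2 and 4 low. The other genes analysed there had narrow ranges: Hpcal1 gave 869, 834, 888 and 877 units, from a probe set whose suffix (_f_at) marks a match to a family of sequences, and Hpcal4 gave 301, 349.6, 402 and 379.6 units. Among EF-hand and S100 buffers, 0 of 11 spanned 2-fold. Calbindin (Calb1), of granule cells and some pyramidal cells, gave 638, 522, 665 and 544 units. Calretinin (Calb2) gave 568, 449.8, 516 and 345 units and S100a10 gave 278, 331, 305 and 215 units, both lowest in sample 4. S100a6 gave 129, 173, 145 and 175 units.

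Other effectors that calmodulin regulates held 5 of the 6 genes past 2-fold, out of 11 analysed. The calcium pump gene Atp2b2 gave 231, 158, 385 and 109 units, a 3.52-fold range. Nos1, neuronal nitric oxide synthase, gave 188, 92.5, 70.5 and 153 units, with samples 1 and 4 high. The cyclic nucleotide phosphodiesterase gene Pde1a gave 136, 145.5, 312 and 256 units, high in samples 3 and 4. The adenylyl cyclase gene Adcy8 gave 169, 149.65, 159.7 and 79.1 units, and without sample 4 its range was 1.13-fold. Ryr3, a calcium release channel, gave 601, 295, 354 and 327 units, while its second probe set, with 299.6, 273, 303 and 177 units, was lowest in sample 4. No single sample was high or low for these 5 genes together. Their mean signals were 126 to 394 units, and the other analysed genes of the list had means of 531 units or more. Ranges were wider at low signal. The 500 probe sets nearest Camk2a 93659_at (mean 247 units) had a median range of 0.65 log2 units. Those nearest Camk2b (mean 4628 units) had 0.33.

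**Figure D4:**
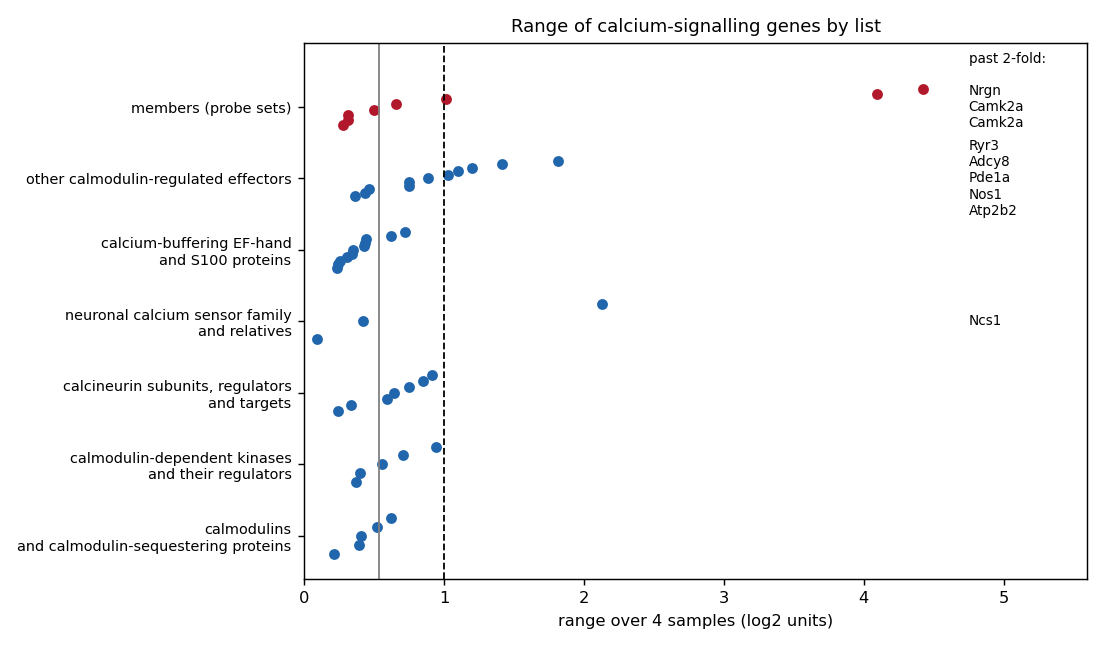
Range over the 4 samples (log2 units) of each analysed gene in the 6 calcium-signalling lists (blue, 1 probe set per gene) and of the 8 analysed member probe sets (red); the grey line is the median of all analysed probe sets, 0.53, the dashed line marks 2-fold, and genes past it are named at the right in order of range. The effector list holds 5 of the 6 list genes past 2-fold, and the Camk2a probe sets lie beyond every list gene.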

How the data were processed

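Total RNA of 4 mouse hippocampus samples was measured on 1 array each. The deposited intensities are linear; the software that made them is not given in the sources used here. Their trimmed means (lowest and highest 2% left out) were 250.1 units on every array, so that the arrays had been scaled before deposit. After 66 control probe sets were left out, arrays were quantile normalized (limma 3.58.1, R 4.3.3), floored at the 25th percentile and taken to log2. Of 12422 probe sets, 10833 had 1 gene symbol, 396 several and 1193 none; only the first kind was named, and 10817 symbols were taken from RefSeq's gene table by Entrez identifier. The variance test (3 residual and 5.06 prior degrees of freedom, robust trend) was tested on simulated data, where it recovered only part of the largest changes and none of the smaller ones.

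Members and lists were chosen with earlier results of these data known. Genes named were all members, the first 2 analysed and the 3 widest genes of each calcium-signalling list, the first 2 of marker lists used, and the 3 probe sets closest to the widest member. Grin2b, Gria2, Nptx1, Map2, Nefm, Nefl, Tubb3, Camk2d and Ryr3 were named outside this rule, with their values known. Alternatives covered normalization, floor, filter, variance trend, probe sets and left-out samples. Protein sequences were not used here.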

Additional observations from a re-analysis of the deposited data

Results flagged for a closer look

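Calm2 in sample 3 was set apart by its gap to the other samples. On the log2 scale this gap made up 0.933 of the whole range of the 4 samples, above Dixon's 95% critical value for 4 samples. The gap itself was small, 1.23-fold. Chance sets apart about 1 in 20 such groups, and 376 of all analysed probe sets (6.05%) passed the same limit; of the analysed members 1 of 8 did. Camk2b, also lowest in sample 3, had a ratio of 0.815, and the Camk2a probe sets, whose samples 1 to 3 were themselves spread, had ratios of 0.724 and 0.780.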

How the results depend on the processing

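No paired analysis was possible because all samples form 1 group. The variance test called 0 probe sets and 0 members under every alternative run. The member probe sets spanning 2-fold numbered 2 or 3 throughout, 2 with median scaling and 2 to 3 with a sample left out. Mean levels moved by less than their SD. All analysed probe sets spanning 2-fold numbered 2810 without the signal filter and 457 to 735 with a sample left out (480 without sample 4 in the normalization of all samples, an alternative chosen after seeing the data), and the calcium-signalling genes 13 without the filter. The range of Hpca was 0.41 log2 units with median scaling. With a sample left out, ranges in log2 units ran from 1.12 to 4.11 and from 0.96 to 4.44 for the Camk2a probe sets 93659_at and 93660_at, both lowest without sample 4, 0.062 to 0.320 for Camk2b and 0.021 to 0.322 for Calm2, lowest without sample 3, 0.21 to 0.55 for Camk4 and 0.26 to 0.50 for Ppp3ca, lowest without sample 1, 0.48 to 1.02 for Nrgn, lowest without sample 2 and 0.54 without sample 3, and 0.24 to 0.66 for Vsnl1, lowest without sample 4. Leaving out a sample cannot widen a range, apart from renormalization. Signal over background was not known, which limits Camk4 and the Camk2a values of sample 4 most.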

Other observations

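The following values were looked up after the Camk2a signals had been seen. Of 1508 genes with 2 or more probe sets, at least 1 of them analysed, 48 had an analysed probe set that lay 2-fold or more below every other sample in sample 4. In 2 of these genes every probe set did so: Camk2a and Adar, which encodes an enzyme that edits double-stranded RNA. Probe sets too dim for analysis counted here as well. A probe set near or under the floor in another sample could not lie 2-fold below that sample. Genes with such a probe set were excluded in advance, so the count of 2 does not show how rare this was. The Adar probe sets gave 126, 184, 77.8 and 38.9 units (102741_at) and 274, 238, 159 and 55.9 units (96188_at) in samples 1 to 4. The nearest genes on either side of Camk2a that code for protein and had a probe set were taken from the RefSeq gene table. Tcof1, Cd74, Csf1r and Pdgfrb had no such low value in sample 4, and Pdgfrb was too dim for the analysed set. Rps14 and Cdx1 could not show such a value. Rps14 was above the floor in sample 4 only, at 44.0 units, and Cdx1 was below it in all 4 samples. Tcof1 gave 236, 275, 258 and 218 units, Cd74 gave 109, 184, 145 and 109 units, Csf1r gave 475, 615, 613 and 485 units from its brighter probe set, and Pdgfrb gave 93.2, 85.0, 87.8 and 74.8 units.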
